A study of Mus musculus with 24 samples.

Results

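The regions described here are the EBF1 peaks whose centre lies within 1 kb of a gene start. EBF1 binding was mapped in mouse cells by chromatin immunoprecipitation and sequencing (ChIP-seq), and the authors gave 1 list of 17230 peaks, each 320 bp wide. Of these, 3752 (21.8%) were centred within 1000 bp of the start of any of the 24506 genes in the RNA count table, taking the first base of a gene on the plus strand and the last on the minus strand. They lay at 4166 genes, or 17.0% of the table. Expression was not used to choose them. The ChIP was done in 230-238, an Abelson-transformed pre-B cell line, with 2 EBF1 immunoprecipitates and 1 input combined into the list. RNA was counted in other cells, namely fetal liver pro-B cells of the C57BL6/J strain, cultured on OP9 stroma in KIT ligand, FLT3 ligand and IL-7. Every RNA group carried the retroviral vector pMiG and held 2 libraries: Ebf1-KO cells with vector encoding Ebf1, with vector encoding Pax5 or with empty vector; Pax5-KO cells with the same 3 vectors; and wild-type cells with empty vector. Below, a group named by genotype alone carried the empty vector. The age of the fetuses, the part of each gene that was deleted and whether replicates came from separate cultures were not given in the sources used here. No RNA of the 230-238 line was analysed here, so its label could not be checked against markers, and a peak shows binding in that line and not in the pro-B cells.

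EBF1 is a transcription factor that B cell precursors need to enter the B lineage, and PAX5 acts after it to hold cells in that lineage. EBF1 binds as a dimer to a palindromic DNA site and can open chromatin at it. Genes of the pre-B cell receptor, in which the surrogate light chain made by Igll1 and Vpreb1 pairs with the heavy chain and signals through CD79A and CD79B, are among its best studied targets. In cells that lack either factor, genes of other blood lineages can be expressed.

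The promoter peaks sat close to the start and more often on the downstream side. The 3752 peaks gave 4289 pairs of a peak and a gene start. Of these pairs 2467 had the peak centre downstream of the start, 1821 upstream and 1 on it. The median position was 72 bp downstream, with quartiles at 233 bp upstream and 239 bp downstream, and 2274 pairs (53.0%) lay within 250 bp. The fullest 100-bp interval, from 100 to 200 bp downstream, held 658 pairs. A single start was found at 3230 of the peaks, 2 starts at 509, 3 starts at 11 and 4 starts at 2. In 465 of the peaks with 2 starts the genes ran on opposite strands, as divergent neighbours do. Protein-coding genes had a promoter peak more often than non-coding RNA genes, 3875 of 20690 (18.7%) and 267 of 3343 (7.99%). On the X chromosome 5.45% of genes had one, against 12.7 to 21.9% on the autosomes. At the edge of the window, the centres at Hnrnph1, Mfsd2a, Eif4e3 and Plekhh3 lay just inside with 179.8, 12.8, 13.9 and 48.8 tags, and those at Map6, Slc9a7 and Etv4 lay just outside with 17.2, 13.3 and 107.6 tags. Ebf1, Pax5 and Myc had no promoter peak: their nearest peaks were centred 5597 bp upstream of the Ebf1 start (42.2 tags), 4276 bp downstream of the Pax5 start within the gene (92.1 tags) and 1498 bp upstream of the Myc start (64.9 tags).

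**Figure D1:**
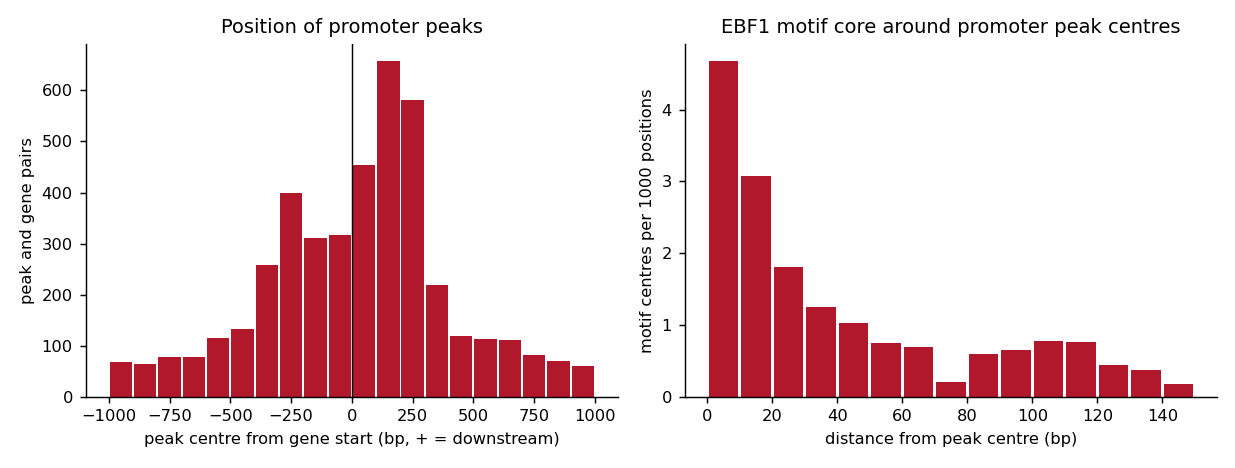
Left, number of peak and gene pairs by the position of the peak centre from the gene start in bp, in 100-bp bins, with downstream positive. Right, centres of the letters CCCNNGGGA (either strand) per 1000 positions examined, by distance from the peak centre in bp. Pairs were most frequent 100 to 200 bp downstream, with 658, and the motif was most frequent within 10 bp of the centre, at 4.68 per 1000 positions.

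The EBF1 site is written here as CCCNNGGGA on either strand, with CCCNNGGG as a looser form and CNCNNGGGA as a relaxed form; the 3 forms overlap. Sequence was read from RefSeq promoters of build GRCm38.p6, which run from 250 bases before to 50 bases after a gene start, and 3211 of the 4166 genes with a promoter peak had one. The stretches below surround the peak centre, or come as close as the promoter sequence allows, at genes whose RNA is described further on. They are 5′ to 3′ on the strand of the gene, and capitals mark any of the 3 forms. Vpreb1 is shown because it has a peak and none of the forms in its stretch. It is not an exception: of 22 named genes examined with the peak centre inside the promoter sequence, 9 had any form in their stretch.
Igll1 (chr16:16864135-16864235, minus strand): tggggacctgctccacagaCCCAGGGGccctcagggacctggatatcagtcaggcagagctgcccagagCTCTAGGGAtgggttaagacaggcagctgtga
Vpreb1 (chr16:16869360-16869460, minus strand): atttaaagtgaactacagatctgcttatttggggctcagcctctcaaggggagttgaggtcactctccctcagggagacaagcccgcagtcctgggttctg
Cd79a (chr7:24897271-24897371, plus strand): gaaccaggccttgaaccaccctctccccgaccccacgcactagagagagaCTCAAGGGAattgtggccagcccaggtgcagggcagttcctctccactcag
Hip1r (chr5:123973378-123973478, plus strand): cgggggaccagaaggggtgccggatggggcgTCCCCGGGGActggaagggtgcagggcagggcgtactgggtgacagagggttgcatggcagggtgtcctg
Ceacam1 (chr7:25477601-25477701, minus strand): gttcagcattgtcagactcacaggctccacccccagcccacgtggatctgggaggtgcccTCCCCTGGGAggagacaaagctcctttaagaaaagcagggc
Csf1 (chr3:107760557-107760657, minus strand): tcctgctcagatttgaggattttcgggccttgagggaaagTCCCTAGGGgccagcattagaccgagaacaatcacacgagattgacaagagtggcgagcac
H2-DMb2 (chr17:34145013-34145113, plus strand): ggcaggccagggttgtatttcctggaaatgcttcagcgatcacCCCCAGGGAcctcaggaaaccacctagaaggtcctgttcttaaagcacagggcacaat
Tnfrsf9 (chr4:150927892-150927992, plus strand): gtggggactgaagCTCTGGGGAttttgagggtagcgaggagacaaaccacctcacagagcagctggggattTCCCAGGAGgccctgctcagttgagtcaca

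Motif letters were more frequent at genes with a promoter peak than at other genes, and most frequent under the strongest peaks. CCCNNGGGA stood in 365 of 3211 promoters with a peak (11.4%, exact 95% binomial interval 10.3 to 12.5%) and in 6.19% of the 13929 promoters of genes without one. With the genes in 4 equal groups by peak signal, weakest to strongest, the share was 7.1, 6.23, 11.8 and 20.3%. For 216 peaks the central 200 bases lay inside a promoter sequence, and there the share was 21.3%, with 11.1, 7.41, 24.1 and 42.6% in the 4 signal groups, against 4.52% in stretches of that length from promoters without a peak. Motif centres numbered 4.68 per 1000 positions within 10 bp of the peak centre, 1.03 at 40 to 49 bp and 0.754 at 50 to 59 bp. Base composition differed too: the median GC content was 63.3% in promoters with a peak and 54.7% in the others, and the observed over expected CpG ratio was 0.818 and 0.48. An ETS-type motif (CCGGAAGT) stood in 9.03% of promoters with a peak and 4.66% of the others, a GC box (GGGCGG) in 71.6% and 42%, CCAAT in 37.8% and 39%, and a RUNX-type motif (TGTGGTT) in 3.83% and 4.83%, each on either strand. Among genes that passed the filter on low counts the gaps were smaller for most of these: the ETS-type motif stood in 9.15% of promoters with a peak and 7.7% of the others, the GC box in 72.7% and 58.7%, with a median GC content of 63.3% and 59.3% and a CpG ratio of 0.823 and 0.714, whereas CCCNNGGGA stood in 11.2% and 6.5%. The part of base composition in these shares was not tested.

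The signal of promoter peaks was lower than that of the other peaks. Signal is the Normalized Tag Count, the tags in a peak scaled by the authors with HOMER. Its median was 21.6 tags at promoters (quartiles 16.1 and 35.5, range 11.7 to 435.6) and 26.6 tags elsewhere (quartiles 17.2 and 48.8, range 11.7 to 653.7). The authors' fold over the control had medians of 8.07 at promoters and 13.84 elsewhere. The input under the peaks went the other way, with a median of 5.2 control tags at promoters and 3.9 elsewhere. The median focus ratio, the fraction of tags near the peak centre, was 0.745 at promoters and 0.804 elsewhere. When the 17230 peaks were ranked by signal, 14 of the strongest 100 and 148 of the strongest 1000 were at promoters. With the list in 10 equal bins by signal, the promoter share was lowest in the strongest bin, 14.2%, and highest in bin 7, 28.2%. There is 1 combined list and no value per replicate, so these differences have no replicate test.

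**Figure D2:**
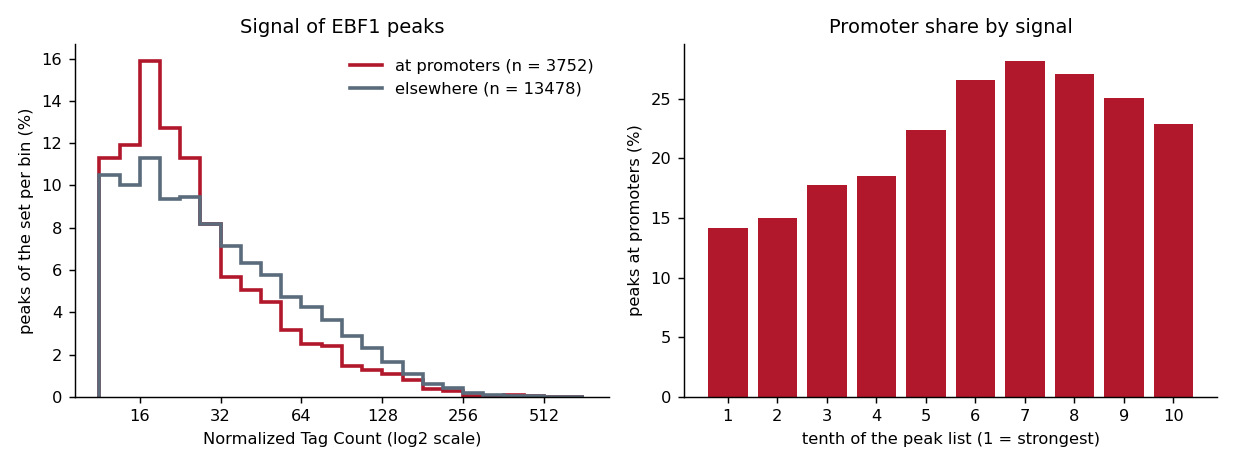
Left, distribution of the Normalized Tag Count (log2 scale) for the 3752 peaks at promoters and the 13478 peaks elsewhere, as percent of each set per bin. Right, percent of peaks at promoters in each of 10 equal bins of the list, from the strongest on the left. The promoter median was 21.6 tags against 26.6 elsewhere, and the promoter share was highest in bin 7 at 28.2%.

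The strongest promoter peak was at Topbp1, a protein of DNA replication and its checkpoint (435.6 tags, centre 119 bp downstream), followed by Zfp131, a zinc finger protein (387.9 tags), Hip1r, an endocytic adaptor (364.0 tags), Smpd3, a sphingomyelinase (362.3 tags), Ppm1a, a protein phosphatase (350.7 tags), Gm15800 (317.4 tags) and 1700019O17Rik (299.1 tags). Igll1, with 295.8 tags at 235 bp upstream, Pold4, a DNA polymerase delta subunit (255.8 tags), and Mtap, an enzyme of methionine salvage (247.5 tags), completed the top 10. In Ebf1-KO against wild type, 2 of these genes were called, Hip1r and Igll1. Topbp1 stood at 391 and 369 CPM in Ebf1-KO, against 373 and 397 CPM in wild type, with a log2 fold change of -0.02 (SE 0.20, adjusted p = 0.98). Hip1r fell, with 9.11 and 9.6 CPM in Ebf1-KO against 29 and 49.3 CPM in wild type (log2 fold change -2.06, SE 0.43, adjusted p = 0.0036), and Igll1 is described below. In Ebf1-KO against wild type the remaining genes tested among these 10, namely Zfp131, Smpd3, Ppm1a, Gm15800, Pold4 and Mtap, had log2 fold changes of -0.90 to 0.07 and did not pass the threshold. Zfp131 fell in Pax5-KO, with 40.6 and 43.3 CPM against 68.7 and 77.9 CPM in wild type (-0.80, SE 0.25, adjusted p = 0.042). 1700019O17Rik had 0 to 0.0964 CPM and was not tested.

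The libraries held 16.1 to 42.1 M exon counts. The targeted genes were read as a check of the labels. With the Ebf1 vector, Ebf1 had 857 and 893 CPM in Ebf1-KO and 1644 and 1483 CPM in Pax5-KO; with the empty vector it had 244 and 282 CPM in Ebf1-KO, 315 and 241 CPM in Pax5-KO and 966 and 1102 CPM in wild type. With the Pax5 vector, Pax5 had 746 and 440 CPM in Pax5-KO and 429 and 399 CPM in Ebf1-KO; with the empty vector it had 20.1 and 12.3 CPM in Pax5-KO, 2.24 and 2.49 CPM in Ebf1-KO and 412 and 333 CPM in wild type. In each knockout both genes were higher with their own vector than with the empty one. Exon counts cannot tell vector from endogenous transcript, and an mRNA that lacks only a deleted exon still gives counts, so the remaining Ebf1 counts in Ebf1-KO do not show how much protein was made. A tag in the column names parts replicate 1 from replicate 2 libraries in every group, and the labels do not say what it marks. Within each tag, the median log2 fold change of Ebf1-KO against wild type was -0.045 and -0.009 for genes with a promoter peak, and 0.037 and 0.055 for all genes.

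Genes with an EBF1 promoter peak were mostly expressed in the pro-B cultures. Of the 4166, 3990 (95.8%) passed the filter on low counts, against 59.4% of all genes, and 176 did not; 45 of these had 0 counts in all 14 libraries. Per kb of exon, the median of their mean CPM was 13.0, against 5.47 for the other 10560 genes tested. This held in every library: the median lay at 11.6 to 12.8 CPM per kb for genes with a promoter peak and at 4.52 to 5.51 for the others. Genes with a promoter peak gave 29.6 to 36.4% of the exon counts of a library.

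Loss of Ebf1 was asked about by setting Ebf1-KO against wild type. Of the 3990 genes, 381 fell (9.55%) and 214 rose (5.36%), while of all 14550 genes tested 6.65% fell and 8.02% rose. The share that fell was thus above that of all genes and the share that rose below it, and 3395 genes were not called. Their median log2 fold change was -0.04, against 0.03 over all genes. The share that fell went up with the signal of the peak: from the weakest to the strongest of 4 equal groups it was 6.21, 8.93, 8.93 and 14.1%, or 62, 89, 89 and 141 genes. The share that rose was 4.71, 4.91, 5.92 and 5.91%. The median level of these groups was 12, 13.8, 13 and 12.9 CPM per kb, lowest in the weakest group. Genes were not split by signal and level together, and the part of level in the signal groups was not tested. Level ran along with the share that fell, in both kinds of gene. In 4 bins of level over all genes tested, lowest to highest, 4.81, 5.57, 10.2 and 12.9% of genes with a promoter peak fell, against 2.22, 4.92, 6.29 and 10.4% of genes without one. The shares that rose in the same bins were 4.3, 3.86, 4.31 and 7.6% of genes with a promoter peak, against 7.59, 11.5, 8.39 and 8.74% of the others. By position, 9.99% fell with a peak centred more than 250 bp upstream, 10.4% at 0 to 250 bp upstream, 7.13% at 1 to 250 bp downstream and 12.2% more than 250 bp downstream. Where CCCNNGGGA stood in the promoter, 42 of 349 genes (12%) fell, against 240 of 2767 (8.67%) where it did not, and their peaks had medians of 30.5 and 21.1 tags. These splits are descriptions of genes, which are not replicates, and carry no test. With 1 library left out of the fit, 196 to 279 genes with a promoter peak fell and 120 to 178 rose, the fewest without Ebf1-KO replicate 1 and Ebf1-KO replicate 2; without wild-type replicate 2 the counts were 230 and 121.

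**Figure D3:**
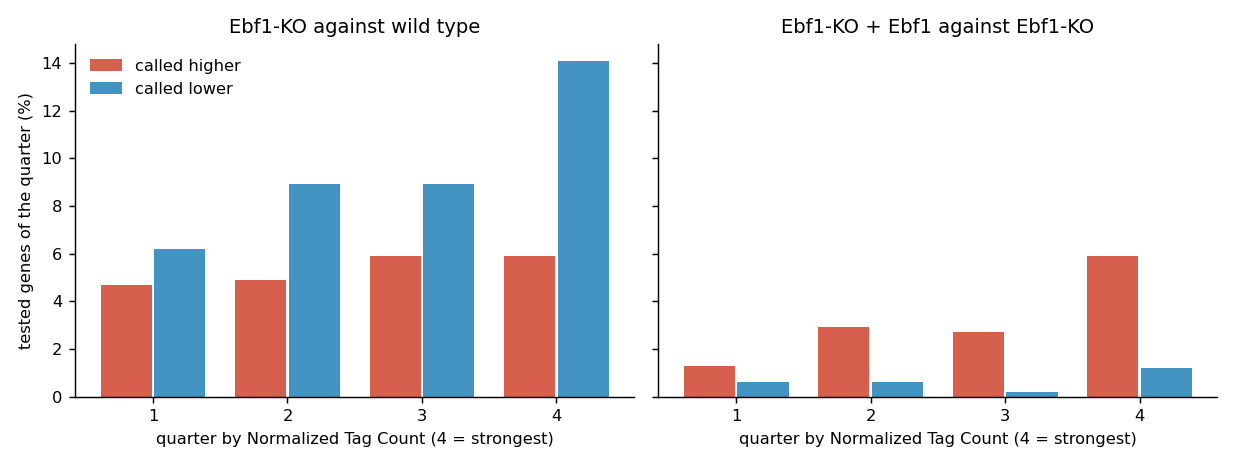
Percent of tested genes called higher or lower in each of 4 equal groups by the signal of their promoter peak (4 is the strongest), for Ebf1-KO against wild type on the left and for Ebf1-KO with Ebf1 against Ebf1-KO on the right. Each holds 997 or 998 genes. In the strongest group 14.1% of genes fell in Ebf1-KO and 5.91% rose when Ebf1 was put back.

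The genes that fell most included those of the pre-B cell receptor. Igll1, the lambda5 part of the surrogate light chain (NM_001190325, peak of 295.8 tags), stood at 0.32 and 0.414 CPM in Ebf1-KO, against 1047 and 822 CPM in wild type (log2 fold change -11.27, SE 0.84, adjusted p = 2.9e-07). Vpreb1, its VpreB partner (51.6 tags), stood at 0.412 and 0.345 CPM in Ebf1-KO, against 331 and 229 CPM in wild type (-9.53, SE 0.66, adjusted p = 1.5e-07). Vpreb2, a near-identical copy of Vpreb1 (98.2 tags), had 0 counts in Ebf1-KO and 75 and 63.7 CPM in wild type, which is at least 1180-fold lower in Ebf1-KO when the Ebf1-KO libraries together are set to 3 counts (adjusted p = 1.1e-07). The groups were far apart for each of the 3 genes, and reads of the 2 Vpreb copies may have been shared between them. Cd79a, the signalling chain CD79A (89.9 tags), stood at 0.549 and 0.518 CPM in Ebf1-KO, against 611 and 427 CPM in wild type (-9.92, SE 0.38, adjusted p = 3.4e-10). Cd79b, its partner chain (149.8 tags), stood at 3.11 and 3.94 CPM in Ebf1-KO, against 571 and 456 CPM in wild type (-7.18, SE 0.28, adjusted p = 4.1e-10). Neither gene overlapped between the groups, and Cd79b kept the higher remaining level. Pou2af1, a coactivator of octamer-binding factors in B cells (79.9 tags), stood at 0.137 and 0.104 CPM in Ebf1-KO, against 2980 and 2803 CPM in wild type (-14.52, SE 0.48, adjusted p = 1.2e-10).

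Of 35 genes of B lineage identity, 9 had a promoter peak: Cd79a, Cd79b, Cd24a, Cd37, Fcrl1, Bank1, Ceacam1, Mzb1 and Pou2af1. In Ebf1-KO 6 of the 9 fell and 0 rose, with a median log2 fold change of -2.70. Of the 26 without a promoter peak, all tested, 21 fell and 0 rose, with a median of -3.24. Cd24a, a glycosyl-anchored surface antigen (16.6 tags), had 54.9 and 58 CPM in Ebf1-KO, against 2489 and 2261 CPM in wild type (-5.39, SE 0.23, adjusted p = 7.4e-10). Mzb1, a chaperone of the endoplasmic reticulum in B cells (103.2 tags), had 9.93 and 12.9 CPM in Ebf1-KO, against 71.5 and 76.6 CPM in wild type (-2.70, SE 0.32, adjusted p = 2.9e-05). Ceacam1, an adhesion molecule (74.4 tags), had 9.47 and 16.8 CPM in Ebf1-KO, against 80.3 and 70.4 CPM in wild type (-2.52, SE 0.41, adjusted p = 0.0005). For these 3 genes both Ebf1-KO libraries lay below both wild-type libraries. Cd37, a tetraspanin, Fcrl1, an Fc receptor-like protein, and Bank1, a scaffold of B cell receptor signalling, had log2 fold changes of -1.0, -0.81 and 1.43 and did not pass the threshold.

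**Figure D4:**
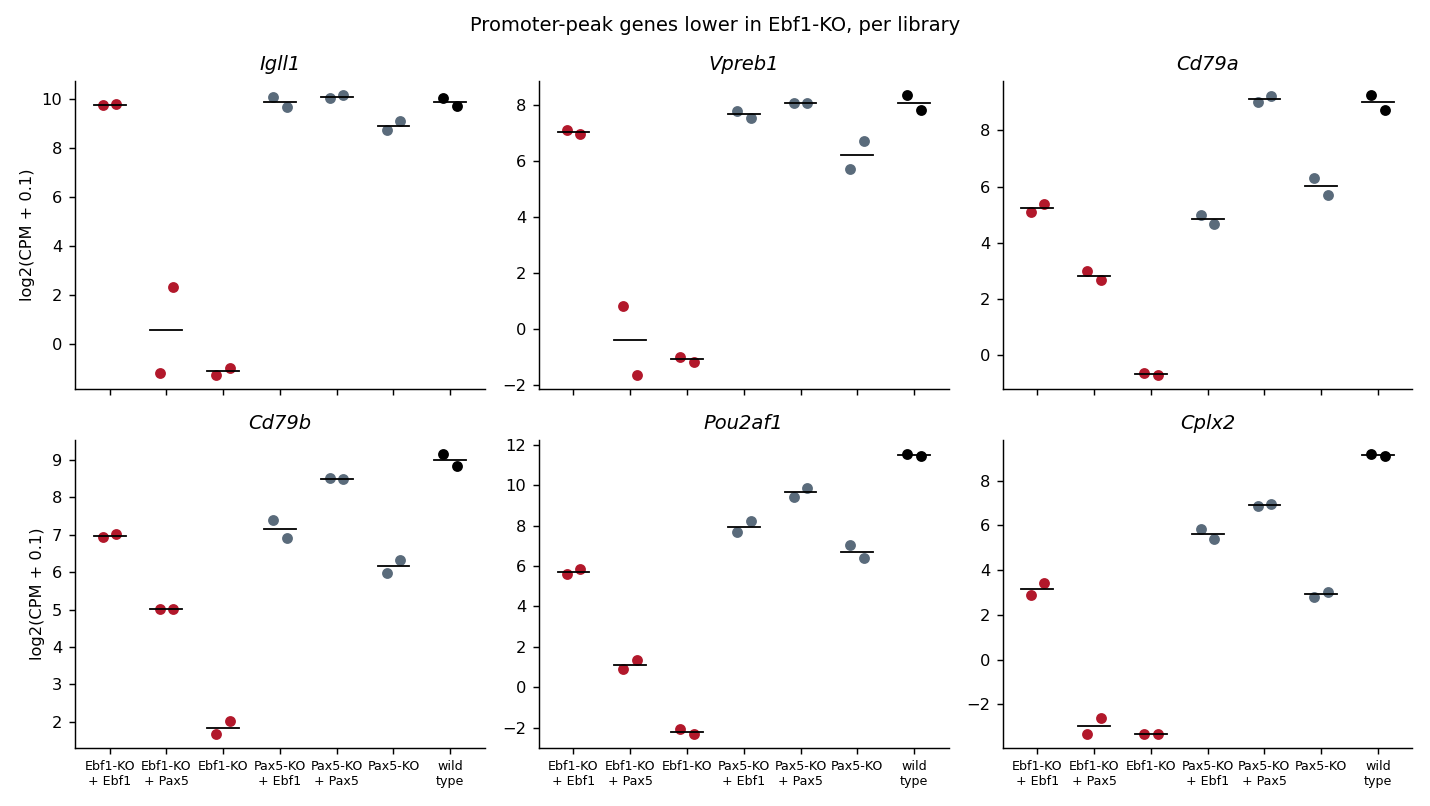
Level of 6 promoter-peak genes in each RNA library, as log2(CPM + 0.1); points are the 2 libraries of a group and bars their mean, with knockouts carrying a vector left of the knockout alone and wild type on the right. In Ebf1-KO the 6 genes stood between 0 and 3.94 CPM, below every wild-type library, and with the Ebf1 vector Igll1 stood at 852 and 867 CPM.

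Of 30 genes of the pre-B receptor and its signalling, 15 had a promoter peak. In Ebf1-KO 8 of the 15 fell and 0 rose (median log2 fold change -1.46), while of the 15 without the peak 7 fell and 2 rose (median -0.51). Besides Igll1, Vpreb1 and Vpreb2, the genes that fell were Blk, Pik3ap1, Cish, Prkcb and Dok3. Prkcb, protein kinase C beta (21.6 tags), had 38.8 and 37.6 CPM in Ebf1-KO, against 1070 and 1094 CPM in wild type (-4.82, SE 0.20, adjusted p = 7.1e-10). Blk, a Src-family kinase (13.9 tags), had 0.32 and 0.0345 CPM in Ebf1-KO, against 36.5 and 48.2 CPM in wild type (-7.95, SE 1.48, adjusted p = 0.0016). Pik3ap1, an adaptor to PI3-kinase also called BCAP (127.1 tags), had 29.1 and 32.7 CPM in Ebf1-KO, against 150 and 129 CPM in wild type (-2.18, SE 0.26, adjusted p = 3.4e-05). The groups did not overlap for any of the 3. Dok3, an adaptor that restrains receptor signals (58.3 tags), fell by 2.55 on the log2 scale (SE 0.42, adjusted p = 0.00058), and Cish, an inhibitor of cytokine signalling (32.7 tags), fell by 1.46 (SE 0.25, adjusted p = 0.00083). The kinases Lyn and Fyn, the IL-7 receptor kinases Jak1 and Jak3, and Socs2, Malt1 and Nfkbia had log2 fold changes of -0.30 to 0.42 and did not pass. Fyn had the strongest peak among these 7, with 80.5 tags, and 67.5 and 61.3 CPM in Ebf1-KO, against 75.5 and 83.3 CPM in wild type.

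Several genes with little known role in B cells fell as far. Cplx2, which encodes complexin 2, a regulator of vesicle fusion (60.5 tags), had 0 counts in Ebf1-KO and 586 and 557 CPM in wild type, at least 9690-fold lower in Ebf1-KO (adjusted p = 5.4e-10). Alpl, tissue-nonspecific alkaline phosphatase (170.3 tags), had 0.0915 and 0 CPM in Ebf1-KO, against 170 and 135 CPM in wild type, a ratio of 3890 (95% counting interval 1080 to 32100). Clgn, the chaperone calmegin (20.0 tags), had 0 and 0.104 CPM in Ebf1-KO, against 161 and 139 CPM in wild type, a ratio of 2550 (873 to 12400). All 3 were near silence in both Ebf1-KO libraries. Col27a1, a fibrillar collagen gene (19.4 tags), and the less studied 1700027J07Rik (154.8 tags) and Gm266 (35.0 tags) had 0 counts in Ebf1-KO, at least 345-fold, 628-fold and 409-fold lower there, with adjusted p of 0.00023, 0.00011 and 0.00013.

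Among the 214 genes with a promoter peak that rose in Ebf1-KO, those with the largest changes and those of the lists for other lineages are described first. Runx2, a transcription factor best known in bone (51.6 tags), had 519 and 683 CPM in Ebf1-KO, against 2.12 and 2.12 CPM in wild type (log2 fold change 8.14, SE 0.26, adjusted p = 1.2e-10). Il2rb, the beta chain of the IL-2 and IL-15 receptors (38.8 tags), had 62.4 and 104 CPM in Ebf1-KO, against 0.104 and 0.172 CPM in wild type (9.21, SE 0.43, adjusted p = 2e-09). Tyrobp, the adaptor DAP12 of natural killer and myeloid cells (13.9 tags), had 323 and 223 CPM in Ebf1-KO, against 1.81 and 0.0572 CPM in wild type (8.14, SE 0.69, adjusted p = 1.1e-06). None of the 3 overlapped between the groups. Flt3, the receptor for the FLT3 ligand in the medium (20.5 tags), had 356 and 399 CPM in Ebf1-KO, against 2.38 and 3.43 CPM in wild type (7.02, SE 0.26, adjusted p = 3.2e-10). Tcf7, a T lineage transcription factor (82.1 tags), had 35.5 and 54.7 CPM in Ebf1-KO, against 1.92 and 0.458 CPM in wild type (5.22, SE 0.47, adjusted p = 1.7e-06). Rtn4rl1, a Nogo receptor homologue (28.3 tags), rose by 7.97 (SE 0.78, adjusted p = 4.5e-06). Each was higher in both Ebf1-KO libraries than in either wild-type library. Klri2, a killer cell lectin-like receptor (14.4 tags), Olfm1, an olfactomedin (48.3 tags), and Tnfrsf9, the costimulatory receptor 4-1BB (84.3 tags), had 2, 1 and 1 counts in wild type, and their ratios were 299 (82.4 to 2470), 484 (86.6 to 19200) and 402 (71.9 to 15900).

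The interferon and antigen presentation genes with a promoter peak rose together. Of 27 genes of the list, 10 had the peak, and all 10 rose in Ebf1-KO with a median log2 fold change of 4.70; of the 17 without the peak 14 rose, with a median of 3.95. Oasl2, an interferon-induced antiviral protein (133.7 tags), had 256 and 304 CPM in Ebf1-KO, against 1.29 and 0.687 CPM in wild type (8.12, SE 0.55, adjusted p = 1.1e-07). Irf7, a transcription factor of the interferon response (28.9 tags), had 86 and 83.8 CPM in Ebf1-KO, against 1.24 and 3.6 CPM in wild type (5.14, SE 0.41, adjusted p = 6.7e-07). The others included Oas2 and Oas3, which make an antiviral messenger, Usp18, a protease of the same response, B2m, Tap1 and Psmb9 of class I antigen presentation, and Ciita, the class II transactivator. The Oas genes are a family of similar genes. Tap1 and Psmb9 are divergent neighbours that share 1 peak, centred downstream of the Tap1 start within the Tap1 gene.

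**Figure D5:**
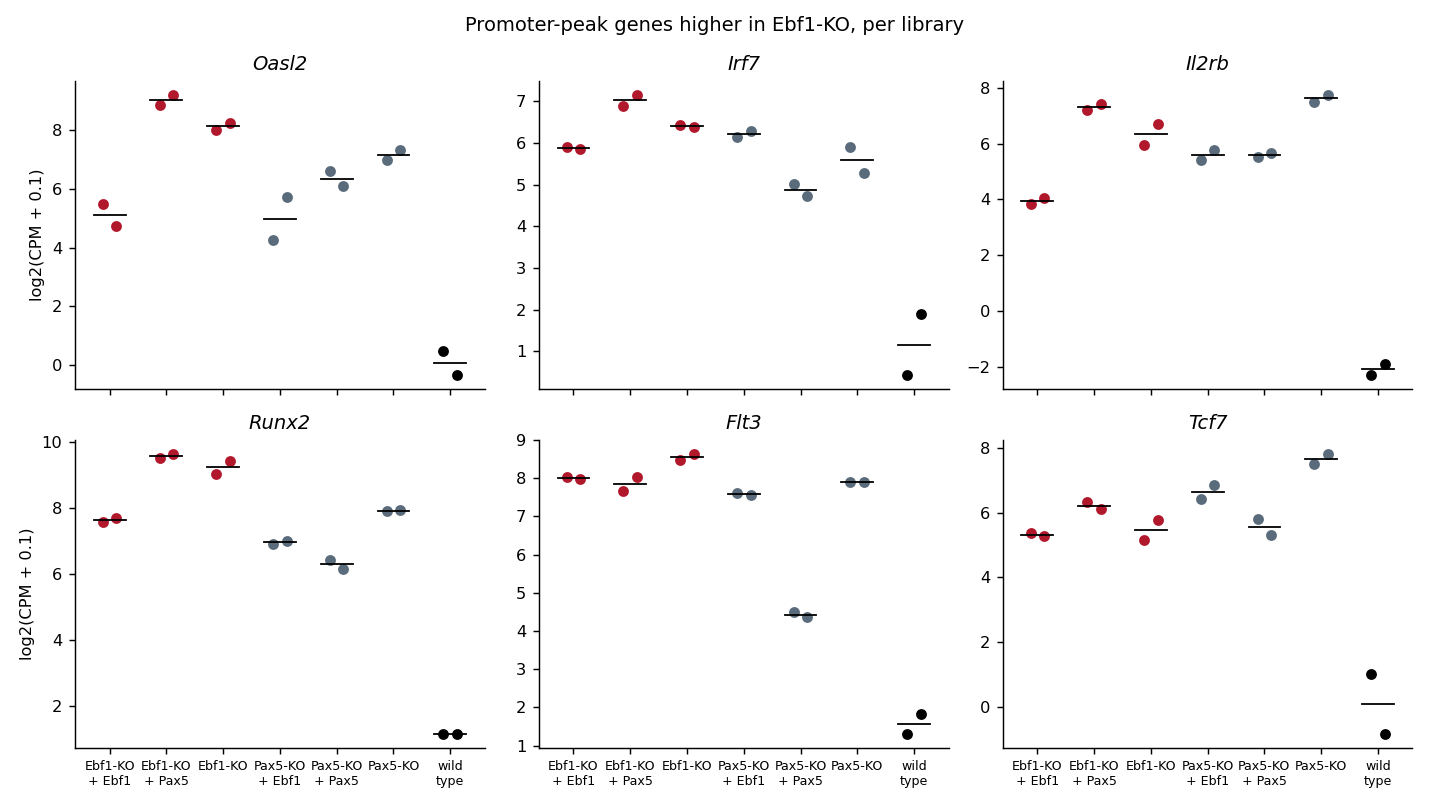
Level of 6 promoter-peak genes that were higher in Ebf1-KO, in each RNA library, as log2(CPM + 0.1); points are the 2 libraries of a group and bars their mean, in the group order of the plot of genes that fell. Runx2 had 519 and 683 CPM in Ebf1-KO against 2.12 in each wild-type library, and Flt3 had 22.4 and 20.5 CPM in Pax5-KO with Pax5, against 237 and 240 CPM in Pax5-KO.

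Summed levels of natural killer, T lineage, myeloid and stroma markers were higher in Ebf1-KO as well, though not every member rose. The sum of the stem and progenitor markers was not, with 2078 and 2254 CPM in Ebf1-KO against 2215 and 2132 CPM in wild type. In bulk samples, more cells of a type and more RNA per cell cannot be told apart. The summed level of 16 natural killer and innate lymphoid markers was 298 to 357 CPM in Ebf1-KO, against 5.23 to 6.58 CPM in wild type, where 6 of them (Klrk1, Ncr1, Gzmb, Prf1, Tbx21 and Eomes) had 0 counts. The sum of 18 T lineage markers was 806 to 973 CPM in Ebf1-KO, against 424 to 451 CPM in wild type, where Bcl11b, Cd3e, Cd3g and Ptcra had 0 counts. Notch1, which has a promoter peak, gave much of that sum, with 399 and 461 CPM in Ebf1-KO against 182 and 234 CPM in wild type. The sum of 19 myeloid markers was 976 to 1051 CPM in Ebf1-KO, against 312 to 365 CPM in wild type, where Cebpa had 0 counts. The 12 OP9-type stroma markers summed to 186 to 240 CPM in Ebf1-KO, against 71.2 to 105 CPM in wild type. Among tested markers without a promoter peak, 9 of 12 natural killer genes rose and 0 fell, 8 of 12 T lineage genes rose and Hes1 fell, and 10 of 14 myeloid genes rose and 0 fell. Of 8 stroma genes 2 rose (Pdgfrb and Thy1, which is also on the T lineage list) and Acta2 fell, and of 10 stem and progenitor genes 4 rose and Erg and Cd93 fell. The part of other cells in the genes that rose was not tested. Among these markers, promoter peaks lay at 3 of the natural killer genes (Id2, Il2rb and Nfil3, 3 rose and 0 fell), 5 of the T lineage genes (3 rose, and Il2ra fell), 5 of the myeloid genes (3 rose, and Csf2rb fell) and 0 of the stroma genes. Il2ra, the alpha chain of the IL-2 receptor and a marker of pre-B cells as well as T cells, had 9.47 and 11.8 CPM in Ebf1-KO, against 187 and 123 CPM in wild type (-3.86, SE 0.28, adjusted p = 2.3e-07). Of 14 stem and progenitor markers 2 had the peak, Flt3 and Lmo2, and both rose. Tfrc, the transferrin receptor and the only gene with a peak among 10 erythroid and megakaryocyte markers, rose by 0.81 (SE 0.22, adjusted p = 0.021).

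Growth genes with a promoter peak changed less and in both directions. Of 30 genes of DNA replication and division 11 had the peak; in Ebf1-KO 3 fell, 2 rose and the median log2 fold change was -0.02, while of the 19 without it 7 fell, 0 rose and the median was -0.48. Ccnd3, cyclin D3 (21.6 tags), had 126 and 171 CPM in Ebf1-KO, against 547 and 579 CPM in wild type (-1.92, SE 0.24, adjusted p = 4.6e-05). Uhrf1, a factor for maintenance of DNA methylation (16.1 tags), fell by 1.18 (SE 0.25, adjusted p = 0.0049), and Aurkb, a mitotic kinase (72.1 tags), fell by 0.97 (SE 0.26, adjusted p = 0.02). Cdk6, a partner of D cyclins (20.5 tags), had 1301 and 1341 CPM in Ebf1-KO, against 593 and 687 CPM in wild type (1.05, SE 0.21, adjusted p = 0.0035), and Cdk4, a related kinase (12.2 tags), rose by 0.61 (SE 0.19, adjusted p = 0.045). Of 25 genes of Myc and ribosome biogenesis 7 had the peak, and in Ebf1-KO 0 of them passed the threshold of edgeR's test, while 2 had an unadjusted p under 0.05 and DESeq2 called 1; their median was 0.25. Myc, without a promoter peak, had 143 and 187 CPM in Ebf1-KO, against 299 and 248 CPM in wild type (-0.73, SE 0.25, adjusted p = 0.068). Of 12 recombination genes Xrcc4, a DNA end-joining factor (139.3 tags), had the peak, and its log2 fold change of -1.12 (SE 0.77) did not pass.

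When Ebf1 was put back into Ebf1-KO cells, 128 genes with a promoter peak rose (3.21%) and 26 fell (0.652%), set against Ebf1-KO with empty vector, while of all genes tested 2.21% rose and 0.763% fell. The other 3836 were not called. The median log2 fold change was 0.05, against 0.00 over all genes. From the weakest to the strongest signal group 13, 29, 27 and 59 genes rose (1.3, 2.91, 2.71 and 5.91%), and 6, 6, 2 and 12 fell. Where CCCNNGGGA stood in the promoter 10 of 349 genes rose (2.87%), against 77 of 2767 (2.78%) where it did not, so these shares were close. With 1 library left out 64 to 86 rose and 9 to 15 fell, the fewest without Ebf1-KO replicate 1 (rose) and without replicate 2 of Ebf1-KO with Ebf1 (fell). Igll1 stood at 852 and 867 CPM in Ebf1-KO with Ebf1, against 0.32 and 0.414 CPM in Ebf1-KO (11.15, SE 0.84, adjusted p = 1.3e-06). Vpreb1 stood at 138 and 126 CPM with Ebf1, against 0.412 and 0.345 CPM without (8.44, SE 0.64, adjusted p = 1.6e-06), and Vpreb2 was at least 911-fold higher. The surrogate light chain genes thus rose together. Cd79a stood at 34.2 and 41.7 CPM in Ebf1-KO with Ebf1, against 0.549 and 0.518 CPM in Ebf1-KO (6.14, SE 0.34, adjusted p = 3.3e-08), and Pou2af1 at 49.1 and 57 CPM, against 0.137 and 0.104 CPM (8.75, SE 0.43, adjusted p = 1.3e-08). In wild type the lowest library had 427 CPM of Cd79a and 2803 CPM of Pou2af1, above both libraries with Ebf1, whereas the Igll1 libraries with Ebf1 lay within the wild-type range of 822 to 1047 CPM. Cd24a, Cd79b, Mzb1, Prkcb and Cish also rose, and so 5 of the 9 B lineage identity genes and 5 of the 15 pre-B receptor genes rose and 0 fell. Of the 26 B lineage genes without the peak 13 rose and 1 fell, and of the 15 pre-B receptor genes without it 4 rose and 0 fell. Ccnd3 rose by 1.53 (SE 0.24, adjusted p = 0.0015) and Uhrf1 by 1.80 (SE 0.26, adjusted p = 0.00074).

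For Ssc5d, Fetub and Gprc5c both libraries with the Ebf1 vector lay above both wild-type libraries, a difference that was not tested. Ssc5d, a soluble scavenger receptor (26.1 tags), stood at 85.7 and 105 CPM in Ebf1-KO with Ebf1, against 0.137 and 0.207 CPM in Ebf1-KO (9.04, SE 0.54, adjusted p = 7.4e-08); wild type had 3.31 and 1.89 CPM. Fetub, a secreted cystatin-type protein made mainly by liver (36.1 tags), had 5.54 and 12.3 CPM in Ebf1-KO with Ebf1 and 17 and 15.4 CPM in Pax5-KO with Ebf1, and 0 counts in the 10 libraries without the Ebf1 vector. It was at least 166-fold higher in Ebf1-KO with Ebf1 than in Ebf1-KO (adjusted p = 0.004) and at least 292-fold higher in Pax5-KO with Ebf1 than in Pax5-KO (adjusted p = 0.0042). Gprc5c, an orphan receptor (53.8 tags), had 17.6 and 24.6 CPM with Ebf1, against 0.229 and 0.483 CPM in Ebf1-KO (5.85, SE 1.36, adjusted p = 0.028), and 0.104 and 0 CPM in wild type. Clgn rose to 61.1 and 76.7 CPM with Ebf1, against 0 and 0.104 CPM in Ebf1-KO, a ratio of 1200 (411 to 5830), and lay below the 161 and 139 CPM of wild type. Among genes that fell, Il2rb stood at 14.1 and 16.3 CPM in Ebf1-KO with Ebf1, against 62.4 and 104 CPM in Ebf1-KO (-2.45, SE 0.27, adjusted p = 6.9e-05). Oasl2 stood at 44.6 and 26.7 CPM with Ebf1, against 256 and 304 CPM without (-2.97, SE 0.41, adjusted p = 0.00053), and Runx2 at 191 and 206 CPM, against 519 and 683 CPM (-1.60, SE 0.19, adjusted p = 0.00014). These 3 genes lay above every wild-type library. Ptafr, the receptor of platelet-activating factor, Lrp1, an endocytic receptor, Oas2, Olfm1, Klri2 and Dusp3, a phosphatase, fell as well, with log2 fold changes of -4.02 (Olfm1) to -2.04 (Dusp3). Of the 10 interferon genes with the peak, Oasl2 and Oas2 fell and 0 rose. Flt3, at 260 and 253 CPM with Ebf1 against 356 and 399 CPM without, did not pass (-0.56, SE 0.20, adjusted p = 0.22).

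When Pax5 was put into Ebf1-KO cells, 165 genes with a promoter peak rose (4.14%) and 29 fell (0.727%), while of all genes tested 3.15% rose and 0.935% fell. From the weakest to the strongest signal group 19, 44, 41 and 61 rose. With 1 library left out 47 to 110 rose and 5 to 18 fell, both fewest without Ebf1-KO replicate 1. With the column tag as a term in the fit, 246 rose (6.17%) and 75 fell (1.88%), while of all genes 4.48% rose and 1.81% fell. The median log2 fold change was 0.04, against -0.01 over all genes. The surrogate light chain genes did not pass: Igll1 stood at 0.345 and 4.89 CPM in Ebf1-KO with Pax5, against 0.32 and 0.414 CPM in Ebf1-KO (2.85, SE 0.78, adjusted p = 0.055), and Vpreb1 at 1.68 and 0.227 CPM, against 0.412 and 0.345 CPM (1.25, SE 0.71, adjusted p = 0.42). The groups overlapped for Vpreb1, and 1 library carried most of the Igll1 counts. Cd79a rose to 7.93 and 6.21 CPM with Pax5, against 0.549 and 0.518 CPM in Ebf1-KO (3.72, SE 0.33, adjusted p = 1.5e-05), and Cd79b to 32.6 and 32.1 CPM, against 3.11 and 3.94 CPM (3.19, SE 0.24, adjusted p = 3.5e-06). Cd24a stood at 371 and 407 CPM with Pax5, against 54.9 and 58 CPM (2.79, SE 0.21, adjusted p = 3.1e-06). With Mzb1 and Pou2af1, 5 of the 9 B lineage identity genes with a peak rose. Of the 26 without a peak 15 rose and 0 fell. Among genes with a mean of at least 10 CPM in the higher group, the largest rises were those of Bhlhe41, a helix-loop-helix repressor (83.2 tags; 52.1 and 55.7 CPM with Pax5, against 1.42 and 0.518 CPM in Ebf1-KO), Adora2a, an adenosine receptor (42.7 tags; 31.8 and 29.8 CPM, against 0.503 and 2.45 CPM), and Flrt1, a cell adhesion protein (35.0 tags; 58.4 and 60.4 CPM, against 5.4 and 2.14 CPM). Their log2 fold changes were 5.82 (SE 1.16), 4.37 (SE 1.10) and 3.99 (SE 0.58), with adjusted p of 0.01, 0.039 and 0.00094. Fabp5, a fatty acid-binding protein, Plxna3, a semaphorin receptor, and Chchd4, a mitochondrial import factor, had log2 fold changes of -2.07, -1.88 and -1.76 and fell. Lyn rose by 1.39 (SE 0.22, adjusted p = 0.0018).

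Loss of Pax5 moved as many genes with a promoter peak up as down. In Pax5-KO against wild type 281 fell (7.04%) and 286 rose (7.17%), while of all genes tested 5.00% fell and 8.65% rose. The median log2 fold change was 0.01, against 0.04 over all genes. From the weakest to the strongest signal group 49, 59, 68 and 105 genes fell, and 65, 64, 73 and 84 rose. Where CCCNNGGGA stood in the promoter 6.02% of genes fell, against 6.51% where it did not. With 1 library left out 99 to 203 fell and 143 to 242 rose, both fewest without Pax5-KO replicate 2; without wild-type replicate 2 the counts were 117 and 146. This comparison shares the wild-type libraries with that of Ebf1-KO, so likeness between the 2 is not evidence from separate samples. Cd79a stood at 79 and 52.4 CPM in Pax5-KO, against 611 and 427 CPM in wild type (-2.98, SE 0.26, adjusted p = 2e-06), and Pou2af1 at 131 and 83.2 CPM, against 2980 and 2803 CPM (-4.75, SE 0.30, adjusted p = 6.9e-08). Igll1 stood at 419 and 536 CPM in Pax5-KO, against 1047 and 822 CPM in wild type, and did not pass (-0.97, SE 0.51, adjusted p = 0.25), though the libraries did not overlap. Vpreb1 fell, with 53.5 and 107 CPM in Pax5-KO against 331 and 229 CPM in wild type (-1.80, SE 0.44, adjusted p = 0.012). Vpreb2, with 63.8 and 68.9 CPM in Pax5-KO against 75 and 63.7 CPM in wild type, did not pass. Of the 9 B lineage identity genes with a peak 5 fell and 1, Bank1, rose, with a median of -1.45, and of the 26 without it 22 fell and 1 rose, with a median of -2.69. Alpl, Gm266 and Mtcl1, a microtubule-associated protein (19.4 tags), had 0 counts in Pax5-KO and were at least 2820-fold, 445-fold and 358-fold lower there than in wild type. Tmed6, a secretory pathway protein (19.4 tags), stood at 41.3 and 85.2 CPM in Pax5-KO, with 0 counts in wild type, at least 840-fold higher, and Hgfac, the activator of hepatocyte growth factor (13.9 tags), at 10.9 and 10.6 CPM, at least 131-fold higher. In Ebf1-KO, Tmed6 stood at 0.0458 and 0.0345 CPM and Hgfac at 0.32 and 0.38 CPM. Of the 10 interferon genes with a peak 9 rose in Pax5-KO, with a median of 3.51. Of the 17 without a peak 14 rose, with a median of 3.74. Tcf7 stood at 184 and 228 CPM, against 1.92 and 0.458 CPM in wild type (7.41, SE 0.50, adjusted p = 1.6e-07), and Notch1, a receptor of T cell commitment (35.5 tags), at 811 and 775 CPM, against 182 and 234 CPM (1.93, SE 0.20, adjusted p = 7.4e-06). The 16 natural killer and innate lymphoid markers summed to 526 to 587 CPM in Pax5-KO and the 18 T lineage markers to 1595 to 1709 CPM, above their wild-type sums given earlier.

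Extra Ebf1 in Pax5-KO cells raised 104 genes with a promoter peak (2.61%) and lowered 69 (1.73%), while of all genes tested 1.75% rose and 1.85% fell. The counts depended on single libraries: without replicate 2 of Pax5-KO they were 23 and 15, and without replicate 2 of Pax5-KO with Ebf1 they were 289 and 405. With the column tag as a term, 162 rose (4.06%) and 112 fell (2.81%), while of all genes 2.63% rose and 3.02% fell. Flrt1 rose to 58.4 and 29.3 CPM in Pax5-KO with Ebf1, against 1.14 and 0.292 CPM in Pax5-KO (6.0, SE 0.66, adjusted p = 0.00023), and Col27a1 to 17.4 and 16.2 CPM, against 0.901 and 0.117 CPM (5.09, SE 1.04, adjusted p = 0.019). Cplx2 rose to 58.1 and 41.6 CPM, against 6.87 and 8.13 CPM (2.73, SE 0.28, adjusted p = 0.00023). Each lay above both Pax5-KO libraries. Of the B lineage identity genes with a peak, Cd79b and Pou2af1 rose, by 1.00 (SE 0.22, adjusted p = 0.019) and 1.23 (SE 0.26, adjusted p = 0.016), while Cd79a fell, with 31.8 and 25.4 CPM in Pax5-KO with Ebf1 against 79 and 52.4 CPM in Pax5-KO (-1.20, SE 0.25, adjusted p = 0.016). Of the 26 B lineage identity genes without a peak 6 rose and 3 fell. Klri2, Gsn, the actin-severing protein gelsolin (57.7 tags), and Ifi30, a lysosomal reductase of antigen processing (31.6 tags), fell, with log2 fold changes of -5.59, -3.46 and -3.41. Ccnd3 rose to 495 and 676 CPM, against 270 and 291 CPM (1.06, SE 0.23, adjusted p = 0.022).

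Pax5 put back into Pax5-KO cells raised 80 genes with a promoter peak (2.01%) and lowered 94 (2.36%), while of all genes tested 1.64% rose and 2.40% fell. The counts were lowest without replicate 2 of Pax5-KO with Pax5, 33 and 24, and at most 47 and 63 without any other library. The shares were close to those of all genes. Csf1, the macrophage growth factor (58.3 tags), stood at 165 and 185 CPM in Pax5-KO with Pax5, against 4.79 and 7.52 CPM in Pax5-KO (4.83, SE 0.37, adjusted p = 3.9e-06), above the 34.5 and 40.4 CPM of wild type. Alpl stood at 32.8 and 44.5 CPM, against 0 counts, at least 739-fold higher, and Flrt1 rose by 4.81 (SE 0.63, adjusted p = 0.00037). Cd79a stood at 519 and 592 CPM in Pax5-KO with Pax5, against 79 and 52.4 CPM in Pax5-KO (3.08, SE 0.26, adjusted p = 8.4e-06), within the wild-type range, and 4 of the 9 B lineage identity genes with a peak rose and 0 fell. Of the 26 B lineage identity genes without a peak 14 rose and 1 fell. Flt3 fell to 22.4 and 20.5 CPM, against 237 and 240 CPM (-3.48, SE 0.22, adjusted p = 7e-07). Notch1 fell to 200 and 175 CPM, against 811 and 775 CPM (-2.08, SE 0.20, adjusted p = 2e-05), and H2-DMb2, a chain of the class II peptide exchanger (94.3 tags), to 1.21 and 2.46 CPM, against 20.8 and 41.7 CPM (-4.07, SE 0.82, adjusted p = 0.009). Tcf7, Id2, an inhibitor of helix-loop-helix factors, and Il2rb fell as well, with log2 fold changes of -2.12, -2.07 and -2.04. Those of Tmed6 and Hgfac, which also fell, were -5.13 and -3.93. Of the 10 interferon genes with a peak 0 passed the threshold of edgeR's test, while 1 had an unadjusted p under 0.05 and DESeq2 called 0.

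The difference between the 2 knockouts in their change with the same vector was tested as well. For the Ebf1 vector 32 of the 3990 genes with a promoter peak differed (0.802%), while 0.612% of all genes did, and for the Pax5 vector 150 differed (3.76%), while 3.16% of all genes did.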

How the data were processed

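The members and gene lists were chosen with earlier results of these data known. RNA values were whole-number exon counts per gene, made by the authors with HOMER on mm10 without normalization, per the file headers. The peak list held the authors' values from HOMER, with replicates compared by IDR: tag counts and control signal per peak, a findPeaks score, a fold over control (a ratio), and a focus ratio (a fraction), all as deposited. Submitters' processing notes name STAR 2.6.0b-1, HOMER 4.8, Bowtie2 2.3.4.2 and 2.3.5. No strand setting was found in the labels or headers, so reads of overlapping genes may be counted for both.

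Counts were tested with edgeR 4.0.16 in R 4.3.3: TMM scaling, filterByExpr, 1 quasi-likelihood fit over 7 groups of 2 libraries, and Benjamini-Hochberg adjustment over 14550 genes with a threshold of 0.05. Rose, fell and called refer to that threshold. SE was derived from the test, as the absolute log2 fold change divided by the square root of the F statistic. CPM is TMM-scaled, and per kb uses the deposited exon length. Folds against groups with 0 counts use a floor of 3 counts over the group, with exact 95% intervals for 1 to 3 counts, which cover counting error only. Since separate cultures are not stated, p-values measure only spread among these libraries, possibly technical spread. Replicates had Pearson correlations of 0.895 to 0.971, and no pair looked like a library deposited under both numbers. Genes were named by a rule: the 10 strongest peaks, the largest called changes per comparison with at least 10 CPM in the higher group and no overlap between libraries, members of the lists, and Ebf1, Pax5 and Myc. The fit was tested on simulated data. For Pax5-KO, 1 count column is numbered 2 and the unnumbered one served as replicate 1. Contact profiles of the Myc promoter were not used. Alternatives were DESeq2 1.42.0, RLE scaling, no filter, the replicate block, each library left out, other windows and peak sets, and other motif forms. Results for some genes are not reported here.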

Additional observations from a re-analysis of the deposited data

Results flagged for a closer look

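The same vector was put into both knockouts, and for some named genes with a promoter peak the change it made differed between them by a test of the difference itself (an interaction in edgeR's fit over all genes, threshold 0.05). Each value here is the log2 fold change in Ebf1-KO minus that in Pax5-KO, and the knockouts also start from unlike levels. For the Ebf1 vector, 32 of 3990 genes with a promoter peak differed (0.802%), 31 with a larger value in Ebf1-KO, beside 0.612% of all 14550 genes. Among them the surrogate light chain gene Igll1 differed by 10.18, Vpreb1 by 7.07, Cd79a by 7.35, Cd79b by 4.15, Pou2af1 by 7.52, Cd24a by 4.58, Mzb1 by 3.05, Prkcb by 1.58 and Cish by 1.74. Ssc5d differed by 6.55 and Lrp1 by -2.88. Vpreb2, Clgn and Cplx2 gave 13.24, 9.27 and 8.15, but had 0 to 3 counts in Ebf1-KO, so these fitted values depend on the prior count and bound nothing. Igll1, for example, had 852 and 867 CPM in Ebf1-KO with Ebf1 against 0.32 and 0.414 CPM in Ebf1-KO, and 1074 and 802 CPM in Pax5-KO with Ebf1 against 419 and 536 CPM in Pax5-KO.

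For the Pax5 vector, 150 of 3990 genes differed (3.76%), 118 with a larger value in Ebf1-KO, beside 3.16% of all genes. H2-DMb2 differed by 6.36, Il2ra by 3.36, Tnfrsf9 by 3.15, Klri2 by 3.13, Il2rb by 2.98, Tcf7 by 2.85, Flt3 by 2.77, Mxd1 by 2.04, Runx2 by 1.95, Notch1 by 1.86, Oas3 by 1.70, Prkcb by 1.66 and Csf2rb by 1.49. Il2ra, for example, had 53.7 and 54.2 CPM in Ebf1-KO with Pax5 against 9.47 and 11.8 CPM in Ebf1-KO, and 81.4 and 105 CPM in Pax5-KO with Pax5 against 178 and 199 CPM in Pax5-KO. The opposite sign was found for Fabp5 at -3.59, Csf1 at -3.05 and Chchd4 at -2.27. Alpl gave -16.21, with 0 to 2 counts in both knockouts with empty vector and in Ebf1-KO with Pax5, so that value bounds nothing.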

How the results depend on the processing

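Of the genes named, 249 of 660 gene and comparison values passed the threshold. DESeq2 lost 2 of these calls, no filter on low counts lost 3, RLE scaling and the replicate block lost 0, and 0 reversed under any alternative; leaving out a library lost 245 of 996 calls (24.6%) and gained 23. The replicate numbers were not taken as pairs, since correlations of same-numbered deviations ran from -0.06 to 0.01 with wild type and from 0.08 to 0.24 between knockout groups; but 13 of those 15 were over 0.1 and the column tag follows the numbers, and what the tag marks is not stated. Counts below are genes with a promoter peak that rose, then genes that fell. Restricting to the stronger peaks by fold over control left 1238 genes tested in place of 3990, so lower counts there are not lower shares. For Ebf1-KO the counts were 76, 166, while adding Ebf1 gave 64, 13 and adding Pax5 gave 69, 10. For Pax5-KO they were 108, 116, while adding Ebf1 gave 40, 34 and adding Pax5 gave 35, 39. The fit was the same, so the shares over all genes are those given for each comparison above. There, the weakest and the strongest signal group held 310 genes each. Of these, 38 in the weakest and 49 in the strongest fell without Ebf1, and 7 and 28 rose with it. With all promoter peaks 62 and 141 of 998 genes fell, so the increase with signal was smaller among the stronger peaks. With centres within 500 bp, 8 of 831 genes in the weakest group rose when Ebf1 was put back. DESeq2 found 66 that fell on adding Ebf1 to Ebf1-KO (323, 103 on adding Pax5); for Pax5-KO it found 276, 209 on adding Ebf1 (142, 198 on adding Pax5). No filter gave 50 that fell on adding Ebf1 to Ebf1-KO (72 on adding Pax5); for Pax5-KO it gave 195, 165 on adding Ebf1 (123, 164 on adding Pax5). The replicate block gave 75 that fell on adding Pax5 to Ebf1-KO, and 162, 112 on adding Ebf1 to Pax5-KO. Leaving out a library gave 120 to 178 and 196 to 279 for Ebf1-KO (adding Ebf1, 64 to 86 and 9 to 15; adding Pax5, 47 to 110 and 5 to 18). For Pax5-KO it gave 143 to 242 and 99 to 203 (adding Ebf1, 23 to 289 and 15 to 405; adding Pax5, 33 to 47 and 24 to 63). The motif share of 11.4% became 24.4% with CCCNNGGG, 21.3% in 200 bases around the centre and 33.9% with CNCNNGGGA, a form chosen after seeing the data. The cause of these shifts was not tested beyond the fewer genes or samples that an alternative leaves. Groups of 2 libraries limit what can be called, and peaks have no per-replicate values.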

Other observations

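Calls of divergent genes under a single promoter peak were compared within pairs. Of the pairs on opposite strands, 432 had both genes tested, and 64 of their 864 genes were called in Ebf1-KO against wild type. That share was below the 14.9% called of all genes with a promoter peak. Of all genes tested 6.65% fell and 8.02% rose. In that comparison 4 pairs had both genes called in the same direction, 0 had them called in opposite directions, 56 had 1 gene called and 372 had none. With Ebf1 put back the counts were 1, 0, 10 and 421. There 12 of the 864 genes were called, where 3.86% of all genes with a promoter peak were. Of all genes tested 2.21% rose and 0.763% fell.

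Most genes under the strongest peaks were not called, but the share called was above that of all genes with a promoter peak. Among the 100 tested genes with the strongest promoter peaks, each of at least 134.8 tags, 16 fell and 7 rose in Ebf1-KO against wild type. Of all genes with a promoter peak 9.55% fell and 5.36% rose. Of all genes tested 6.65% fell and 8.02% rose, so the share of the 100 that rose was close to that of all genes. When Ebf1 was put back 10 rose and 1 fell, where 3.21 and 0.652% of all genes with a promoter peak did. Over all genes tested the shares were 2.21 and 0.763%.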
